A study of Mus musculus with 16 samples.

Results

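The comparison described here sets secondary mammary tumours grown from transplanted lineage-negative (lin-) cells against primary MMTV-Neu tumours. Its members were taken from the sample descriptions: 2 tumours described as generated with lin- cells (lin- 1 and lin- 2) and 5 described as primary (primary 1 to 5), 7 of the 16 tumours in all. The other 9, labelled single TIC, were each started by 1 tumour-initiating cell and served as a reference. All 16 carry the strain label FvB, and in all of them the Neu oncogene is driven by the mouse mammary tumour virus promoter. Per the labels each tumour measured under 1 cm across, and no age, host genotype or donor is stated in them. Primary tumours have names beginning with N and secondary tumours names beginning with WT, so that a difference in host mice and a difference between primary and secondary growth cannot be told apart. It is also not stated whether tumours shared a donor or a cell preparation, so p-values cover only tumour-to-tumour spread in this set. Total RNA of each tumour was hybridised to 1 Illumina mouse bead array, and the question the design poses is which genes are regulated differently in secondary tumours.

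Neu is the rat counterpart of the receptor tyrosine kinase ErbB2, and its expression from the mammary tumour virus promoter gives rise to tumours of luminal character. Lineage depletion in general removes blood, endothelial and stromal cells from a dissociated tumour by their surface markers, and a host then supplies vessels and connective tissue to the graft. The markers used here are not in the labels. A tumour extract holds RNA of all these cells, and fewer cells of a type cannot be told apart from less RNA per cell.

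Levels are given as log2 normalized intensity, on which a difference of 1 is 2-fold. Between 12513 and 13163 probes were detected per array over the 16 arrays. Mean raw intensity was 961 ± 85.8 (SD, n = 2) on the lin- arrays and 882 ± 57.1 (SD, n = 5) on the primary arrays (two-sided exact permutation p = 0.286, the smallest that these groups allow being 0.0952). The luminal keratins were high throughout: Krt8 lay between 13.58 and 14.26 and Krt18 between 13.06 and 13.54 in all 7 tumours. Probes for Erbb2 and Epcam were not analysed here. Primary 2 stood apart from the other primary tumours. Relative to the primary mean its endothelial genes averaged -1.77 and its T and NK cell genes 2.21. Primary 1 alone among the 7 held skeletal muscle transcripts (Acta1 at 9.39 against 4.62 to 4.68 in the other 6). The Pearson correlation between the 2 lin- arrays was 0.981, inside the range of 0.959 to 0.984 between primary arrays. It ran from 0.962 to 0.979 between lin- and primary arrays.

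No gene passed the test between lin- and primary tumours. With limma's moderated test, 0 of 9903 genes (0%) reached an adjusted p under 0.05, while 975 (9.85%) had an unadjusted p under 0.05. The smallest adjusted p was 0.0664, for Pfdn2. Arrays weighted by their agreement with the fit gave 10 calls, and leaving out primary 4 gave 7. Differences are therefore described by where the 2 lin- tumours lay relative to the primary tumours. In 618 genes (6.24%) both lin- tumours lay above all 5 primary tumours, and in 853 (8.61%) both lay below, 1471 (14.9%) in all. If the 7 tumours were interchangeable, a share of 0.0952 of genes would on average lie outside in this way. A large part of the 1471 thus needs no group difference. Most of these gaps were narrow, with a median of 0.11 above and 0.10 below the nearest primary tumour. In 7 genes the gap reached 1 upwards and in 1 gene downwards. The mean difference reached 1 in 88 of the genes above and 35 of the genes below. A range of 5 tumours depends on its most extreme tumour: without primary 2 the count was 2247. With only 1 of the lin- tumours required to lie outside, it was 3451 for lin- 2 and 3458 for lin- 1.

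**Figure D1:**
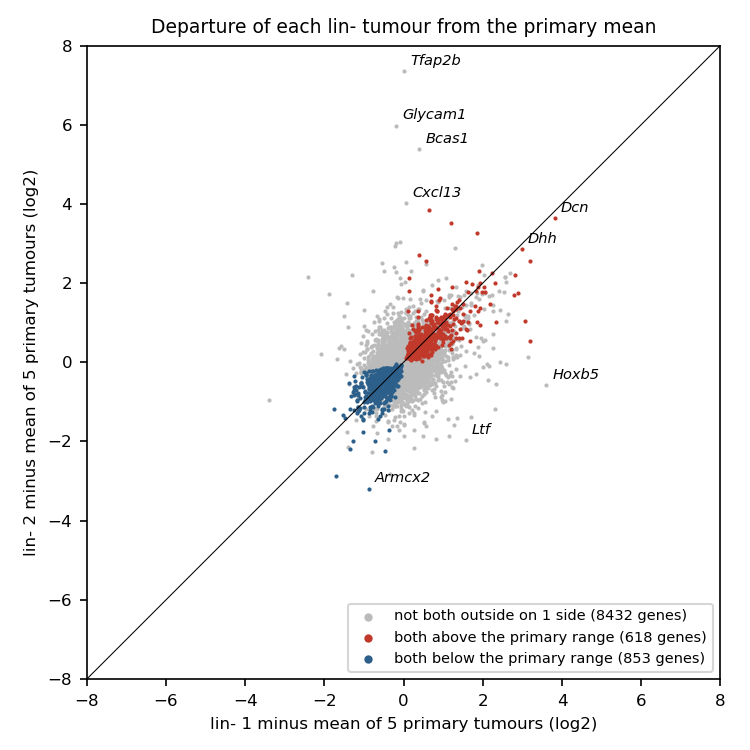
Departure of lin- 1 (horizontal) and lin- 2 (vertical) from the mean of the 5 primary tumours in log2 units, 1 point per gene for 9903 genes, with the diagonal marking equal departure. The 618 red and 853 blue genes have both lin- tumours outside the primary range on the same side, and Tfap2b, Glycam1 and Bcas1 lie far up the vertical axis because lin- 2 alone was high.

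Among genes detected on both lin- arrays, the 12 with the widest gap above the primary tumours had differences between 1.33 and 2.92. Dhh, which encodes the ligand desert hedgehog, was at 7.98 and 7.86 in lin- 1 and lin- 2, while the primary tumours were at 5.03, 5.01, 4.80, 4.79 and 5.38 and none of their arrays detected it. The lin- level was at least 4.83-fold higher (adjusted p = 0.534 by limma). Such a bound, used for genes that every array of a group failed to detect, sets the bright group's mean against the mean over the dim arrays of the gene's own value or of the lowest detected signal, whichever is higher. The gap was wide but the limma test did not pass, and the single TIC tumours, which share the fitted spread, ran from 4.94 to 11.02. With only the 7 lin- and primary tumours in the fit, Dhh was the 1 gene called (adjusted p = 0.00260). The primary spread behind that p is one of undetected values. Dhh was also named for its wide gap in these same data. Nkd2, a membrane-bound antagonist of Wnt signalling, was at 8.36 and 8.38 against 6.73, 5.20, 6.52, 6.12 and 6.09. Its difference was 2.24 (SE 0.65, adjusted p = 0.323), with detection on 4 of 5 primary arrays. Bsg, which encodes the surface glycoprotein basigin, was at 8.22 and 7.09 and was detected on no primary array, where it lay between 5.01 and 5.63, at least 4.02-fold lower (adjusted p = 0.429). Both Bsg probes kept on the array had the lin- tumours above all primary tumours.

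Retnla, a secreted product of alternatively activated macrophages and fat tissue, was at 8.37 and 7.75 in the lin- tumours. In the primary tumours it was at 6.44 and 6.45 in primary 1 and primary 3 and at 4.89 to 5.03 in the other 3, a mean difference of 2.51 (SE 1.13, adjusted p = 0.491). Rarres2, which encodes the chemoattractant chemerin, had nearly the same level in both lin- tumours (8.19 and 8.17) and lay between 5.08 and 7.24 in primary tumours. H2-M2, a class Ib histocompatibility gene, was at 7.31 and 7.70 against 4.75 to 6.0. Ckb, brain-type creatine kinase, was at 12.21 and 11.63 against 9.91 to 10.62, a difference of 1.65 (SE 0.63, 3.14-fold, adjusted p = 0.408). Tmem159, which encodes a protein of lipid droplets, was at 8.64 and 8.67 against 5.78 to 7.57. The remaining genes of the 12 widest gaps were Cyp2f2, a cytochrome P450 (at least 1.61-fold higher), Spsb4, Tesc, a calcium-binding regulator, and Synm, an intermediate filament protein. Their differences were 1.44, 1.33, 1.34 and 1.80, with adjusted p-values between 0.401 and 0.459. Of 3 kept Synm probes, 2 had both lin- tumours above the primary range.

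**Figure D2:**
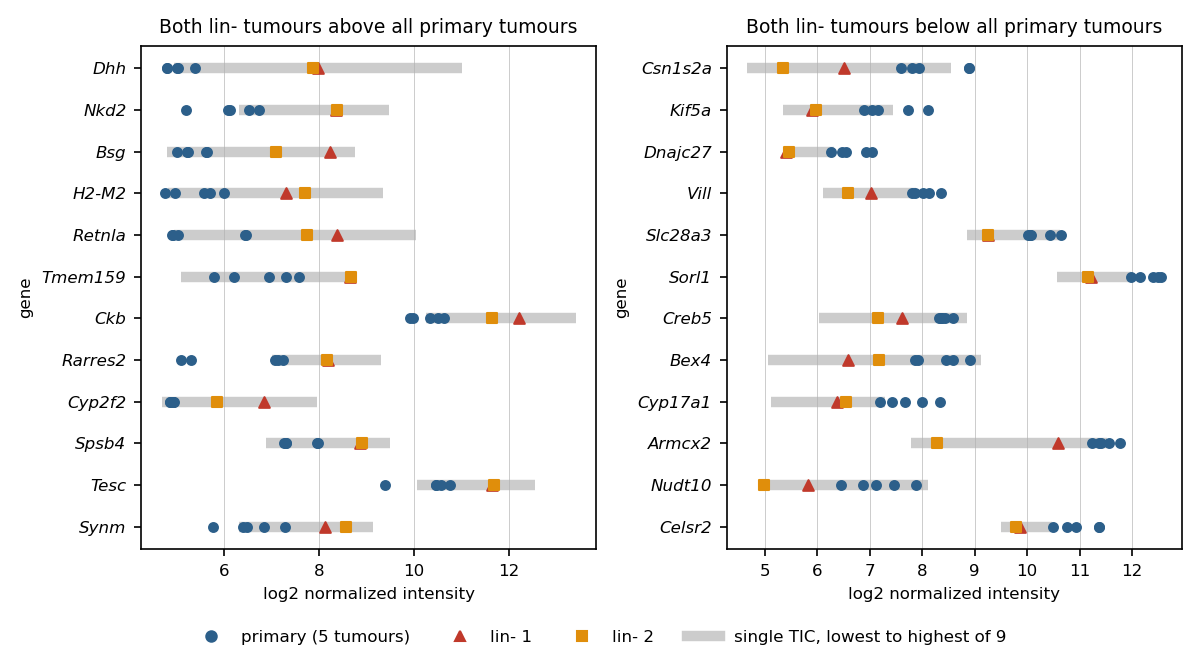
Log2 normalized intensity (horizontal) of the 12 genes with the widest gap above (left) and the 12 with the widest gap below (right) the 5 primary tumours. Genes on the left were detected on both lin- arrays and genes on the right on all 5 primary arrays. Circles are primary tumours, the triangle lin- 1, the square lin- 2, and the grey bar spans the 9 single TIC tumours, and both lin- tumours lie outside the 5 primary tumours in every gene shown.

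Below the primary tumours, the widest gap among genes detected on all 5 primary arrays belonged to Csn1s2a, which encodes a casein of milk. It was at 6.51 and 5.35 in lin- 1 and lin- 2 and at 7.60, 8.89, 7.94, 7.80 and 8.89 in primary tumours (difference -2.29, SE 0.80, adjusted p = 0.377). Its lin- 2 level was below the lowest detected signal of that array (5.62), so the difference rests in part on a background value. Kif5a, a kinesin motor, was at 5.89 and 5.97 against 6.88 to 8.11. Dnajc27, a small GTPase with a J domain, was at 5.41 and 5.45 against 6.26 to 7.05. Neither lin- array detected Dnajc27, so it was at least 2.04-fold lower (adjusted p = 0.118). Sorl1, a sorting receptor, had similar levels in the lin- tumours (11.23 and 11.15) below 11.98 to 12.56 in the primary tumours, a difference of -1.13 (SE 0.30, adjusted p = 0.307). Celsr2, a cadherin of the planar polarity pathway, was at 9.86 and 9.78 against 10.49 to 11.36 (difference -1.16, SE 0.28, adjusted p = 0.224). Cyp17a1, a hydroxylase of androgen synthesis, was at 6.38 and 6.54 against 7.19 to 8.33.

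For Armcx2, an armadillo-repeat gene, the lin- tumours were far apart: 10.59 in lin- 1 and 8.28 in lin- 2, both below 11.23 to 11.77. Nudt10 was also lower in lin- 2 than in lin- 1 (4.97 and 5.82, against 6.45 to 7.89), and Bex4 lay at 6.59 and 7.17 against 7.86 to 8.92. The Nudt10 level in lin- 2 was below the lowest detected signal of that array (5.62). Vill, a villin-like actin-binding protein, Slc28a3, a nucleoside transporter, and Creb5, a transcription factor, completed the 12 with gaps of 0.79, 0.76 and 0.71. For Vill and Slc28a3 only 1 of 2 kept probes had both lin- tumours below the primary range.

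The genes with the smallest p-values had modest differences and tight groups. Pfdn2, a subunit of the prefoldin chaperone that delivers unfolded actin and tubulin to the cytosolic chaperonin, was at 11.82 and 11.74 in the lin- tumours. It was at 11.01, 10.75, 10.87, 11.05 and 10.39 in primary tumours (difference 0.96, SE 0.15, 1.95-fold, adjusted p = 0.0664). Pfdn2 passed the threshold in 10 of 17 alternative fits, with adjusted p-values from 0.0169 to 0.547 over all of them. Clic1, a chloride channel protein, was at 10.98 and 10.41 against 9.55 to 10.01 (difference 0.89, SE 0.15, adjusted p = 0.101). Ppp3r1, the regulatory subunit of calcineurin, was at 11.20 and 11.49 against 9.25 to 10.49 (difference 1.23, SE 0.24, adjusted p = 0.118). The other genes among the 10 smallest p-values were all lower in the lin- tumours. Tmcc3 (5.14 and 5.68 against 6.15 to 6.51) had a difference of -0.97, and Polm, a DNA polymerase of end joining, one of -1.03. The Tmcc3 level in lin- 1 was below the lowest detected signal of that array (5.63). Primpol, a primase-polymerase that restarts stalled replication, was at 8.72 and 8.48 against 9.03 to 9.74, and Wdr60, of the dynein-2 motor, at 8.0 and 7.79 against 8.49 to 8.92. Actn2, a muscle actinin, and D430042O09Rik were detected on neither lin- array and were at least 1.27-fold and 1.35-fold lower. For these 10 genes, Dnajc27 included, the adjusted p-values ran from 0.0664 to 0.118.

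The prefoldin and chaperonin list around Pfdn2 did not share its position. Of 15 measured members 1 lay above the primary range and 1 below (6.67% each, against 6.24% and 8.61% of all genes). The 1 below was Cct3 of the chaperonin (11.6 and 11.9 in lin- tumours). The median difference was -0.01, beside -0.02 over all genes. Pfdn4 had a difference of 0.35 and Pfdn1 one of -0.49, both with overlapping groups.

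Genes of connective tissue were higher on average in the lin- tumours throughout the list. All 24 measured genes of the fibroblast and matrix list had a higher mean in lin- tumours, with a median difference of 1.46 (0.88 without background correction or with the authors' processed table). The single TIC tumours had a median difference from primary tumours of 1.12 for this list. Dcn, which encodes the collagen-binding proteoglycan decorin, was at 11.36 and 11.17 in lin- 1 and lin- 2. It was at 10.80, 4.74, 9.70, 5.41 and 7.07 in primary 1 to 5, a difference of 3.73 (SE 1.72, adjusted p = 0.499). The arrays of primary 2 and primary 4 did not detect Dcn, so their levels are not above background. The primary tumours thus spanned 6 units, with primary 1 and primary 3 close to the lin- tumours. Lum, a related proteoglycan, was at 7.73 and 7.04 against 4.76 to 6.99, and Fstl1, a secreted glycoprotein of mesenchymal cells, at 9.0 and 8.74 against 5.03 to 8.70. These 3 were the only list genes with both lin- tumours above the primary range (12.5%, against 6.24% of all genes), and 0 lay below. Loxl1, which cross-links elastin, and Bgn, another proteoglycan, had differences of 2.48 and 2.35 with overlapping groups. Primary 1 set the upper limit: without it 19 of the 24 genes lay above. The mean level of the list relative to the primary mean was 1.56 in lin- 1, 1.38 in lin- 2, and 1.67, -1.35, 0.87, -0.48 and -0.71 in primary 1 to 5.

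Endothelial genes were likewise lowest in primary 2, and primary 1 was level with the lin- tumours. All 15 measured endothelial genes had a higher mean in lin- tumours (median difference 0.86, with 0.43 without primary 2 and 0.50 without background correction). For the single TIC tumours the median difference from primary tumours was 0.90. Ramp2, a co-receptor for adrenomedullin, was at 9.51 and 9.21 against 9.01, 6.28, 8.53, 8.51 and 7.67, a difference of 1.36 (SE 0.47, adjusted p = 0.380). Egfl7, a secreted endothelial factor, was at 10.02 and 9.63 against 4.83 to 9.60. Ramp2 and Egfl7 were the 2 endothelial genes above the primary range (13.3%, against 6.24% of all genes). Of 3 kept Egfl7 probes 1 lay above it. Without primary 1, 4 endothelial genes lay above. Emcn, the endothelial sialomucin endomucin, overlapped at 9.47 and 9.38 and was at 4.82 in primary 2. In the pericyte and smooth muscle list 0 of 10 genes lay outside the range (median 0.49, and 0.19 without primary 2). Acta2, smooth muscle actin, was at 11.48 and 11.66 in lin- tumours and at 11.95, 4.93, 10.51, 10.41 and 9.48 in primary tumours, with 2 of its 4 kept probes above the range.

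Fat cell genes were higher on average in the lin- tumours, more so in lin- 2. Their mean level relative to the primary mean was 0.51 in lin- 1 and 1.23 in lin- 2, with primary tumours from -0.20 to 0.21. Of 9 measured adipocyte genes 4 (44.4%, against 6.24% of all genes) lay above the primary range, 0 below, and all 9 had a higher mean. The median difference was 0.63, with 0.25 without background correction or with the authors' processed table, 1.11 without lin- 1 and 0.34 without lin- 2. The shift was not particular to lin- tumours, since single TIC tumours had a median difference from primary tumours of 0.67. Adipoq, the hormone adiponectin, was at 6.63 in lin- 1 and 8.97 in lin- 2 against 4.91 to 6.43 (difference 2.35, SE 1.42, adjusted p = 0.613). Plin4, a lipid droplet coat protein, was at 6.79 and 7.48 against 4.69 to 6.66. Car3, carbonic anhydrase of fat and muscle, was at 5.36 and 7.35 against 4.57 to 5.32, where no primary array detected it. Cidea, a lipid droplet protein of brown fat and of the milk-secreting gland, was at 7.27 and 7.67 against 5.99 to 7.10. With detection required on at least 5 of the 7 arrays, 4 adipocyte genes were left and 1 lay above. The part of surrounding fat tissue in these levels was not tested.

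**Figure D3:**
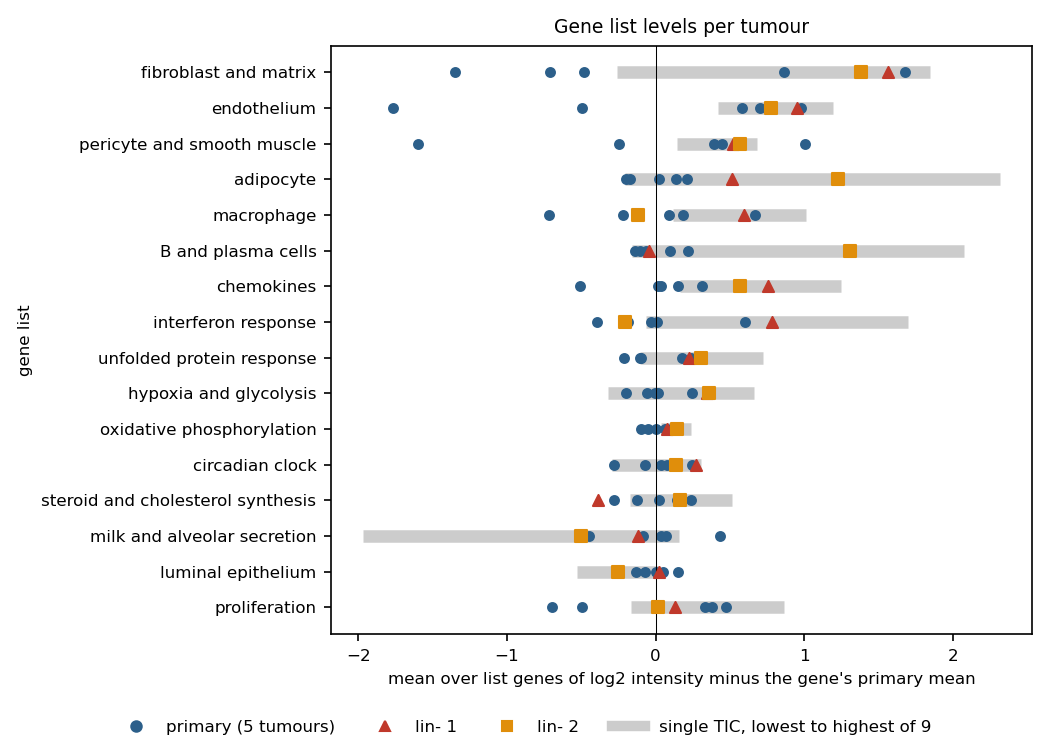
Mean level of 16 gene lists per tumour (horizontal, log2 units relative to the gene's mean over the 5 primary tumours). Circles are primary tumours, the triangle lin- 1, the square lin- 2 and the grey bar the 9 single TIC tumours, and the lin- tumours lie beyond all primary tumours for the adipocyte, chemokine and hypoxia lists while they straddle 0 for the interferon and macrophage lists.

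Chemokines that attract monocytes, macrophages and eosinophils were among the genes above the range. Of 24 measured chemokines and receptors 5 (20.8%) lay above all primary tumours and 1 (4.17%) below, against 6.24% and 8.61% of all genes. The median difference was 0.53, and it was 0.18 with lin- 1 left out and 0.20 without background correction or with the authors' processed table. Single TIC tumours had a median difference from primary tumours of 0.64 for this list. Ccl8, a monocyte attractant, was at 9.83 and 9.20 in lin- tumours and at 8.94, 4.92, 7.50, 6.34 and 5.44 in primary tumours, a difference of 2.89 (SE 1.05, adjusted p = 0.394), with detection on 3 of 5 primary arrays. Over the 5 primary tumours Ccl8 and the fibroblast list had the same order, with primary 1 highest and primary 2 lowest; the part of connective tissue in the Ccl8 level was not tested. Pf4, platelet factor 4, was at 7.92 and 7.31 against 5.18 to 6.74 (difference 1.59, SE 0.50, adjusted p = 0.333). Ccl9, a macrophage-produced chemokine, was at 9.03 and 8.57 against 6.94 to 8.19. Ccl7, another monocyte attractant, was at 6.91 and 6.73 against 4.81 to 6.52, and Ccl11, which attracts eosinophils, at 6.98 and 6.64 against 5.36 to 6.51. Cxcl17 lay below at 4.71 and 4.95 but was detected on no lin- array and on 1 of 5 primary arrays. The macrophage list itself had 1 of 14 genes above the range, Cd163, a scavenger receptor detected on no primary array and on 1 lin- array (5.16 and 5.65 against 4.48 to 4.72). Its median difference was 0.18, with -0.02 without primary 5, -0.16 without lin- 1 and 0.59 without lin- 2.

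In the unfolded protein response, stress in the endoplasmic reticulum raises transcription of its chaperones and folding enzymes through a promoter element, CCAAT, 9 bases of any kind, then CCACG, bound by NF-Y and ATF6. This element, on either strand, was found in 7 of the 24 promoters listed for 23 measured response genes (29.2%) and in 39 of 32851 promoters in the RefSeq table (0.119%, build GRCm38.p6, each running from 250 bases before to 50 after the start of the gene). The promoters of 2 of the response genes above the primary range are shown with the element in capitals. That of Hspa5 covers chr2:34771840-34772139 on the plus strand and that of Hsp90b1, with 2 elements of opposite orientation, chr10:86705395-86705694 on the minus strand.
Hspa5: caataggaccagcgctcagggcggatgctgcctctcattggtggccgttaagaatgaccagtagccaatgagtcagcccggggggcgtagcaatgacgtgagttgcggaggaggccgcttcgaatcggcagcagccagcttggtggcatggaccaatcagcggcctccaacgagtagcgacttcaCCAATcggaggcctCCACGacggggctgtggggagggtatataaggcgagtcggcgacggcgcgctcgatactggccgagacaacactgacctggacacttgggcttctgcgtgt
Hsp90b1: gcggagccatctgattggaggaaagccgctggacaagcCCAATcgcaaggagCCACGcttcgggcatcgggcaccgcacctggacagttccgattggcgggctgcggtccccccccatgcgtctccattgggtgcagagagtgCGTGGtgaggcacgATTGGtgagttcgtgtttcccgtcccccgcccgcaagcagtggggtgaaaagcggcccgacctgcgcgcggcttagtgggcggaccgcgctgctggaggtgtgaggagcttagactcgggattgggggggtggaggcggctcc

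Of the 24 measured genes of this response 4 (16.7%) lay above the primary range, 0 below, and 19 had a higher mean in lin- tumours (median 0.25, and 0.15 without lin- 2). Over all genes 6.24% lay above and 8.61% below. Pdia3, a disulfide isomerase that folds glycoproteins, was at 13.60 and 13.33 in lin- tumours and at 12.59, 11.99, 12.52, 12.80 and 12.23 in primary tumours. Its difference was 1.04 (SE 0.21, 2.06-fold, adjusted p = 0.136). Hspa5, the chaperone BiP whose promoter is printed above, was at 8.35 and 8.31 against 7.77, 6.93, 7.16, 8.24 and 7.93 (difference 0.72, SE 0.42, adjusted p = 0.601). Hsp90b1, the chaperone GRP94, was at 14.18 in both lin- tumours, 0.02 above primary 1, so that its place above the range rests on a narrow margin. Derl2, of the pathway that removes misfolded proteins, was at 9.90 and 10.02 against 9.45 to 9.76 (difference 0.43, SE 0.11, adjusted p = 0.303). Creld2 and Pdia6, which also hold the element, had differences of 0.66 and 0.68 with overlapping groups. The groups also overlapped for Calr, Dnajc3 and Syvn1, the other genes with the element. None was found for Pdia3 or Derl2. Primary 4 was the highest primary tumour for Pdia3, Hspa5 and Derl2, and without it 8 genes of the list lay above.

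Glycolytic genes and targets of the hypoxia pathway were above the range in 6 of 20 measured members (30%, against 6.24% of all genes), with 0 below and a median of 0.34. Adm, the vasodilator adrenomedullin, was at 7.0 and 6.96 against 5.05, 5.75, 5.31, 6.38 and 5.41 (difference 1.40, SE 0.65, adjusted p = 0.502). Pgam1, phosphoglycerate mutase, was at 10.36 and 10.44 against 9.31 to 10.04, and Pfkp, a phosphofructokinase, at 11.01 and 11.34 against 9.94 to 10.97. Gapdh was at 15.29 and 14.98 against 14.47 to 14.89, and its probe may not separate it from its many processed copies. Car9, a carbonic anhydrase induced by low oxygen, had lin- levels of 10.48 and 10.52 just above 9.76 to 10.31. Pgk1 was near the detection limit, with 0 of 5 primary arrays detecting it. With mean raw intensity as a covariate the list's median was 0.18. The number above the range was 4 of 20 with the highest-variance probe per gene. It was 4 of 17 with detection required on at least 5 of the 7 arrays. In the single TIC tumours the list's median difference from primary tumours was 0.14.

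In oxidative phosphorylation 5 of 47 measured genes (10.6%) lay above the primary range and 0 below, against 6.24% and 8.61% of all genes, with a median of 0.09. They were Atp5c1, Atp5e and Atp5o of the ATP synthase, Cox5a of cytochrome oxidase and Sdhb of succinate dehydrogenase, with differences of 0.41, 0.47, 0.45, 0.39 and 0.21. Atp5o was at 8.57 and 8.56 against 7.81 to 8.42. For Sdhb the margin to the nearest primary tumour was 0.01. The count was 8 without primary 2 and 9 without primary 4.

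Several genes of the circadian clock lay outside the primary range, 3 above and 2 below. The clock runs on a loop in which Arntl (BMAL1) with Clock or Npas2 drives transcription of the Per, Cry, Dbp and Ciart genes through E-box sequences, and the Per and Cry proteins then repress that drive. Arntl was at 8.18 and 7.79 in the lin- tumours and at 8.68, 9.08, 8.86, 9.32 and 9.36 in primary tumours (difference -1.08, SE 0.28, adjusted p = 0.303). Npas2 was at 5.40 and 4.61 against 5.49 to 7.14, detected on no lin- array and on 3 of 5 primary arrays, at least 1.33-fold lower (adjusted p = 0.333). On the other side, Dbp was at 13.43 and 13.58 against 12.42, 10.83, 12.42, 12.94 and 11.75 (difference 1.43, SE 0.43, 2.70-fold, adjusted p = 0.323). Ciart, a repressor of the loop, was at 7.78 and 7.43 against 5.48 to 6.74 (difference 1.22, SE 0.43, adjusted p = 0.377). Per2 was at 10.39 and 10.61 against 9.07 to 9.90 (difference 0.98, SE 0.23, adjusted p = 0.212). For Ciart and Per2 both kept probes lay above. Of 17 measured clock genes 3 lay above (17.6%) and 2 below (11.8%), against 6.24% and 8.61% of all genes, so that the share below was near that of all genes. An unadjusted p under 0.05 was found for 6 clock genes, against 9.85% of all genes. The list's median was 0.19, and 0.10 without primary 2 or without lin- 1. The hour at which each tumour was taken is not in the labels, and its part in these values was not tested.

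The E-box CACGTG was found in 4 of the 22 promoters listed for 14 measured clock genes (18.2%) and in 7.15% of all promoters in the same table, and was looked up after the levels were known. The clock genes with the box were Ciart, above the primary range, and Per1 and Tef, which overlapped it. None was found for Dbp or Per2. The promoter of Ciart, at chr3:95882179-95882478 on the minus strand, holds 3 such boxes, in capitals.
Ciart: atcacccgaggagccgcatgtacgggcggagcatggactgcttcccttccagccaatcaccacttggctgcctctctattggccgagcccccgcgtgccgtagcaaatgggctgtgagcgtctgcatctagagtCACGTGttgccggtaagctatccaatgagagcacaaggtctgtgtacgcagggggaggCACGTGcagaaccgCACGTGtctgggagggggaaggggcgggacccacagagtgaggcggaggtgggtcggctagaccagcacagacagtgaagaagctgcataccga

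**Figure D4:**
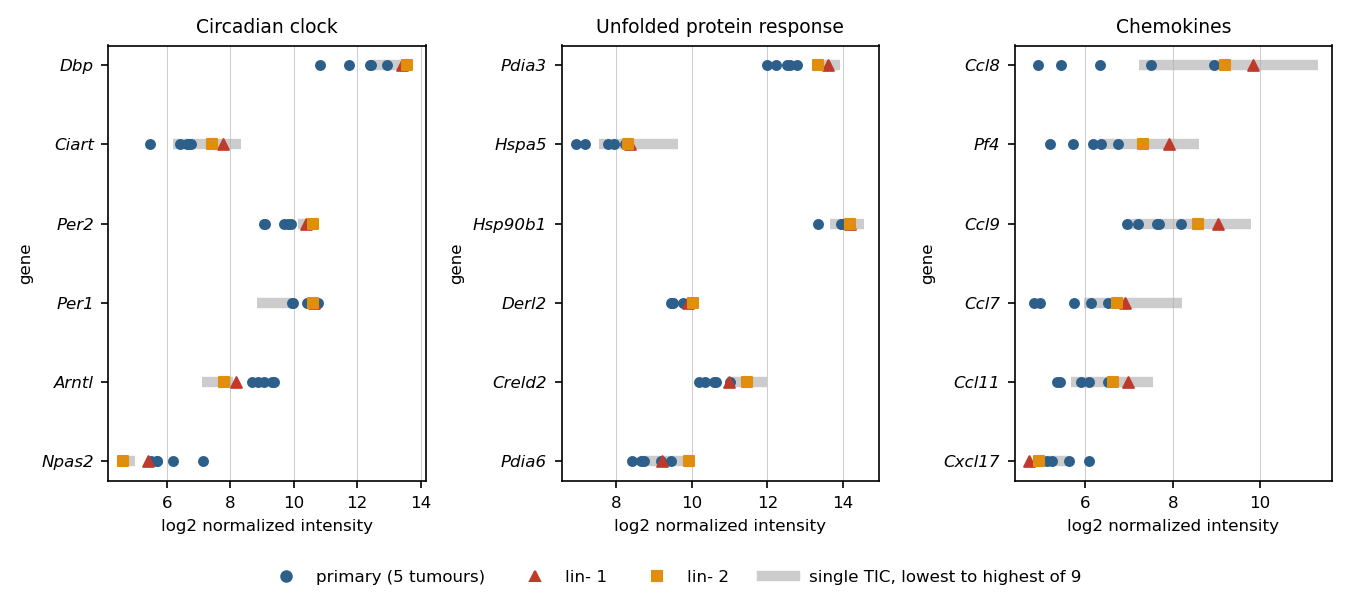
Log2 normalized intensity (horizontal) of 6 genes each of the circadian clock, the unfolded protein response and the chemokines. Circles are the 5 primary tumours, the triangle lin- 1, the square lin- 2 and the grey bar spans the 9 single TIC tumours; Arntl and Npas2 lie to the left of the primary tumours while Dbp, Ciart and Per2 lie to the right, and Per1 overlaps the primary tumours but lies above the grey bar.

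Milk genes were below the range in 5 of 18 measured members (27.8%, against 8.61% of all genes) and above it in 0, with a median of -0.32. Besides Csn1s2a these were Lalba, alpha-lactalbumin of lactose synthesis (12.61 and 12.53 against 13.32, 13.59, 12.91, 13.16 and 13.35), with a difference of -0.69 (SE 0.25, adjusted p = 0.388). Lao1, an amino acid oxidase secreted into milk, was at 7.79 and 7.99 against 8.27 to 10.29. Xdh and Btn1a1, which wrap the milk fat droplet, were at 12.30 and 12.10 against 12.51 to 12.84 and at 12.81 and 11.04 against 12.88 to 13.87. The list as a whole was lower in lin- 2 (mean level -0.50 relative to the primary mean) than in lin- 1 (-0.12), and its median was -0.02 without lin- 2 and -0.65 without lin- 1. Single TIC tumours had a median difference from primary tumours of -0.34 for the milk list. Wap, whey acidic protein, was above the primary range in lin- 1 (11.97) and below it in lin- 2 (9.11). Of the 15 steroid and cholesterol genes 0 lay above and 2 (13.3%) below, against 6.24% and 8.61% of all genes. The 2 were Cyp17a1 and Hsd3b2. Hsd3b2, a steroid dehydrogenase with near-identical relatives, was at 10.87 in both lin- tumours against 11.86, 11.75, 11.42, 11.45 and 13.56 (difference -1.14, SE 0.40, adjusted p = 0.380). The median of this list was -0.0037.

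Interferon-stimulated genes, which cells switch on in answer to viruses and to immune signals, differed between the 2 lin- tumours. Of 35 measured genes 34 were higher in lin- 1 than in lin- 2, with a median difference of -0.95 (lin- 2 minus lin- 1), beside 0 over all genes. Relative to the primary mean the list stood at 0.78 in lin- 1 and -0.20 in lin- 2, with primary tumours from -0.39 to 0.60. Isg15, a ubiquitin-like modifier induced by interferon, was at 10.39 and 9.21 against 8.42, 7.91, 8.43, 9.66 and 8.41 (difference 1.24, SE 0.53, adjusted p = 0.462). Bst2, the antiviral membrane protein tetherin, and Psmb8, a subunit of the immunoproteasome, were the 2 genes above the range in both. That was 5.71% of the list, against 6.24% of all genes. Bst2 was at 9.37 and 9.09 against 6.72 to 8.82 and Psmb8 at 10.20 and 9.42 against 8.20 to 9.30. Ifi27 was below by 0.02 (2.86%, against 8.61% of all genes), and its other kept probe was not. Primary 4 was the highest primary tumour for Isg15, Bst2 and Psmb8, and without it 5 genes of the list lay above the range.

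These genes respond through the interferon-stimulated response element, whose core was searched as TTTC, 2 bases of any kind, then TTTC, on either strand. It was found in 13 of the 30 promoters listed for 26 measured interferon genes (43.3%) and in 3.44% of all promoters in the table. Of the interferon genes with a core only Bst2 lay outside the primary range, and none was found for Psmb8. The promoter of Bst2, at chr8:71537423-71537722 on the minus strand, holds 2 overlapping cores in capitals, read here on the opposite strand as GAAA repeats.
Bst2: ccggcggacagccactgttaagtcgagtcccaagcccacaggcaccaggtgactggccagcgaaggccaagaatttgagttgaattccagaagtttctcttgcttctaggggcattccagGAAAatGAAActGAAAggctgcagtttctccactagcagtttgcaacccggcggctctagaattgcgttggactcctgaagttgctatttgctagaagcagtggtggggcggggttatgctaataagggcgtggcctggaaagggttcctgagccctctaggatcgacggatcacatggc

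Genes of the ErbB pathway lay mostly below the primary mean. Of 12 measured members 9 had a lower mean in lin- tumours (median -0.24). Above the range lay 1 (8.33%) and below it 2 (16.7%), against 6.24% and 8.61% of all genes. Relative to the primary mean the list stood at -0.07 in lin- 1 and -0.09 in lin- 2, within the -0.17 to 0.15 of primary tumours. Pik3r3, a regulatory subunit of PI3-kinase, was at 9.79 and 10.05 against 7.94, 7.37, 7.56, 9.03 and 8.46 (difference 1.85, SE 0.71, 3.60-fold, adjusted p = 0.410). Lrig1, which promotes degradation of ErbB receptors, was at 10.10 and 9.81 against 10.38 to 11.13. Grb2, the adaptor to Ras, was at 5.54 and 5.32 against 5.69 to 6.18 and detected on neither lin- array, at least 1.20-fold lower. Egfr overlapped, at 10.36 and 11.04 against 10.92 to 11.43.

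Markers used to enrich mammary stem and tumour-initiating cells gave no common position. Of 14 measured members 1 lay above (7.14%) and 2 below (14.3%), against 6.24% and 8.61% of all genes, with a median of 0.04. Bmi1, a polycomb repressor, was at 8.28 and 8.36 against 6.99 to 8.24, a margin of 0.04. Inhbb, an activin subunit, was at 11.72 and 11.41 against 11.81 to 12.18, and Cd47, a signal against phagocytosis, at 9.37 and 9.24 against 9.46 to 9.80. The surface markers Cd24a (6.37 and 6.0), Itga6 (7.99 and 8.41) and Itgb3 (5.78 and 6.29) overlapped the primary tumours, which ran from 5.85 to 7.38, 7.88 to 8.28 and 5.42 to 6.11.

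In the Wnt list 0 of 18 genes lay above and 2 below (11.1%, median -0.02), against 6.24% and 8.61% of all genes. Wnt5a, a ligand of the non-canonical branch, was at 7.15 and 7.57 against 8.12 to 8.79 (difference -1.02, SE 0.81, adjusted p = 0.728). Tcf7l2, a nuclear effector of the canonical branch, was at 9.83 and 9.73 against 9.96 to 10.37, and both kept probes lay below for each gene. Among 15 genes of epithelial-mesenchymal transition 2 lay above (13.3%) and 0 below, against 6.24% and 8.61% of all genes. The median of this list was 0.40 (0.15 without lin- 1, and 0.24 without background correction). Lgals1, the lectin galectin-1 of connective tissue and blood cells, was at 11.41 and 11.19 against 9.61 to 10.86 (difference 0.94, SE 0.28, adjusted p = 0.323). Twist1 was detected on no primary array and lay 0.02 above the range in lin- 2. Without primary 1, the tumour with most connective tissue transcripts, 7 genes of this list lay above. Cdh1, the epithelial cadherin, was the 1 of 14 luminal genes below the range (7.14%, against 8.61% of all genes), and 0 lay above. Its levels were 11.38 and 11.49 against 11.56 to 12.22, and the median of the luminal list was -0.14.

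Among immediate early and heat shock genes, Fos and Hspa1a were each high in a pair of primary tumours. Fos was at 13.36 in primary 2 and 11.76 in primary 4 but at 8.94 to 10.43 in the other 3, and at 9.36 and 8.60 in the lin- tumours. Hspa1a, an inducible heat shock protein, was at 11.26 and 12.30 in primary 4 and primary 5 and between 8.29 and 8.55 in the other 5 of the 7 tumours. Ier3 and Dnajb1 lay above the range in both lin- tumours (differences 0.56 and 0.45) and Jun below (-0.57). These were 2 (10%) and 1 (5%) of 20 measured genes, against 6.24% and 8.61% of all genes. The list's median was -0.08. The part of tissue handling in these levels was not tested.

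The remaining lists had few genes outside the range. Over all genes 6.24% lay above it and 8.61% below. Proliferation (28 genes, median 0.04), Notch (12, 0.06), basal and myoepithelial (12, 0.0040), major histocompatibility class II (10, 0.38), neutrophil (7, -0.17), B and plasma cell (5, 0.74) and erythrocyte genes (5, 0.18) had 0 on either side. The B and plasma cell median was -0.09 without lin- 2 and 1.66 without lin- 1, and the neutrophil median was 0.10 without lin- 2. The class II median was 0.17 without background correction. Proteasome genes had 1 above and 1 below of 32 (3.1% each, median 0.06). Ribosomal proteins had 1 above (2.56%) and 2 below (5.13%) of 39 (median 0.01). Il2rb of 10 T and NK cell genes (median 0.23), Atp2a1 of 9 skeletal muscle genes (median -0.36, and 0.03 without primary 1, the tumour that held muscle transcripts) and Sbsn of 4 skin genes (median -0.40) lay below, each detected on no lin- array, with 0 above in these 3 lists. Without primary 2, 5 T and NK cell genes lay above, and without primary 5, 4 proliferation genes lay below. The T and NK cell median was 1.01 without primary 2 and -0.10 without primary 5. Over all genes tested the median difference was -0.02, with 4635 genes higher and 5268 lower in the lin- tumours.

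The 2 lin- tumours differed from each other by at least 2-fold in 370 genes, 203 of them higher in lin- 1 and 167 in lin- 2. In 305 genes (3.08%) they lay on opposite sides of the whole primary range, 143 with lin- 1 above and 162 with lin- 2 above. The 6 widest of these were Ltf, Wap, Cd14, Mup2, Wnt7b and Lnx1. Ltf, the iron-binding milk and neutrophil protein lactoferrin, was at 10.46 in lin- 1 and 6.93 in lin- 2, around primary levels of 9.48, 8.44, 8.91, 8.22 and 9.41. Of its 2 kept probes 1 showed this. Cd14, the lipopolysaccharide co-receptor also carried by luminal progenitors, was at 11.49 and 8.75 around 10.16 to 11.03. Mup2, of the near-identical major urinary protein genes, was at 4.96 and 8.55 around 6.19 to 7.77, and both kept probes were higher in lin- 2 by at least 2-fold. Macrophage genes were higher in lin- 1 for 13 of 14 members and steroid and cholesterol genes higher in lin- 2 for 14 of 15 (median difference 0.48).

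Among the widest differences between the lin- tumours, chosen after their values were seen, several genes were undetected in 1 tumour and high in the other. Tfap2b, a transcription factor of the AP-2 family, was at 4.89 in lin- 1 and 12.24 in lin- 2, at least 97.4-fold higher since the lin- 1 array did not detect it, and all 4 kept probes differed by at least 2-fold in that direction. All 5 primary tumours were at 4.59 to 5.25, and of the single TIC tumours only 2, single TIC 7 and single TIC 8, were high (11.94 and 11.83, against 4.89 to 5.17 in the other 7). Bcas1, a gene first found amplified in breast cancer, was high in the same 3 tumours: 10.39 in lin- 2, 10.34 in single TIC 7 and 10.63 in single TIC 8, against 5.39 in lin- 1 and 4.73 to 5.45 in primary tumours. In single TIC 1 and single TIC 6 it was at 6.09 and 6.62. Evc and Evc2, neighbouring genes of a ciliary complex in hedgehog signalling, were high together in lin- 2 (8.45 and 9.29) and low together in lin- 1 (4.94 and 4.75). Both were also high in primary 4 (8.13 and 9.33) and primary 2 (7.41 and 9.11) and low in primary 1 (5.02 and 4.81) and primary 3 (5.02 and 4.72), while primary 5 lay between at 5.62 and 7.76.

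Homeobox genes of the Hoxb cluster, which lie side by side in the genome and specify position along the body axis, were high in lin- 1 as a block. Hoxb2, Hoxb4, Hoxb5, Hoxb6 and Hoxb7 were at 8.95, 8.98, 9.74, 7.33 and 8.67 in lin- 1. In lin- 2 they were at 6.06, 5.50, 5.57, 4.74 and 5.66. Hoxb3 was low in both (5.53 and 5.84). Primary 5 held the same 5 genes at 8.29, 9.17, 9.35, 6.56 and 7.86, and primary 4 held Hoxb2 and Hoxb4 at 7.82 and 7.52 but Hoxb5 at 5.46. Primary 1, 2 and 3 were at 6.14 or less in all 5. Single TIC 1 was high in all 5 and single TIC 2 in all but Hoxb7 (5.81). The gland from which a tumour was taken or into which cells were placed is not in the labels and was not tested.

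Several B cell genes, a B cell chemokine and Glycam1 set lin- 2 apart. Glycam1, a ligand for lymphocyte homing receptors and also a milk protein, was at 10.81 in lin- 2 and 4.65 in lin- 1. Cxcl13, a chemokine for B cells, was at 8.72 and 4.76, Cd79b of the B cell receptor at 8.43 and 5.31, and Fcmr, a receptor for IgM, at 8.19 and 4.99. Primary tumours reached at most 5.80 for any of these 4 genes, and single TIC 2 was the only other tumour with all of them above 8 (10.98, 9.41, 8.90 and 9.26). Glycam1 was also at 7.26 in single TIC 7 and 6.12 in single TIC 8. Cd79a and Mzb1, both of B lineage cells, were at 6.37 and 7.15 in lin- 2 and at 4.54 and 5.13 in lin- 1. The T and NK cell list did not set lin- 2 apart. Relative to the primary mean it stood at 0.14 in lin- 1, 0.08 in lin- 2 and 1.76 in single TIC 2. Whether lin- 2 and single TIC 2 were taken with lymph node tissue was not tested.

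**Figure D5:**
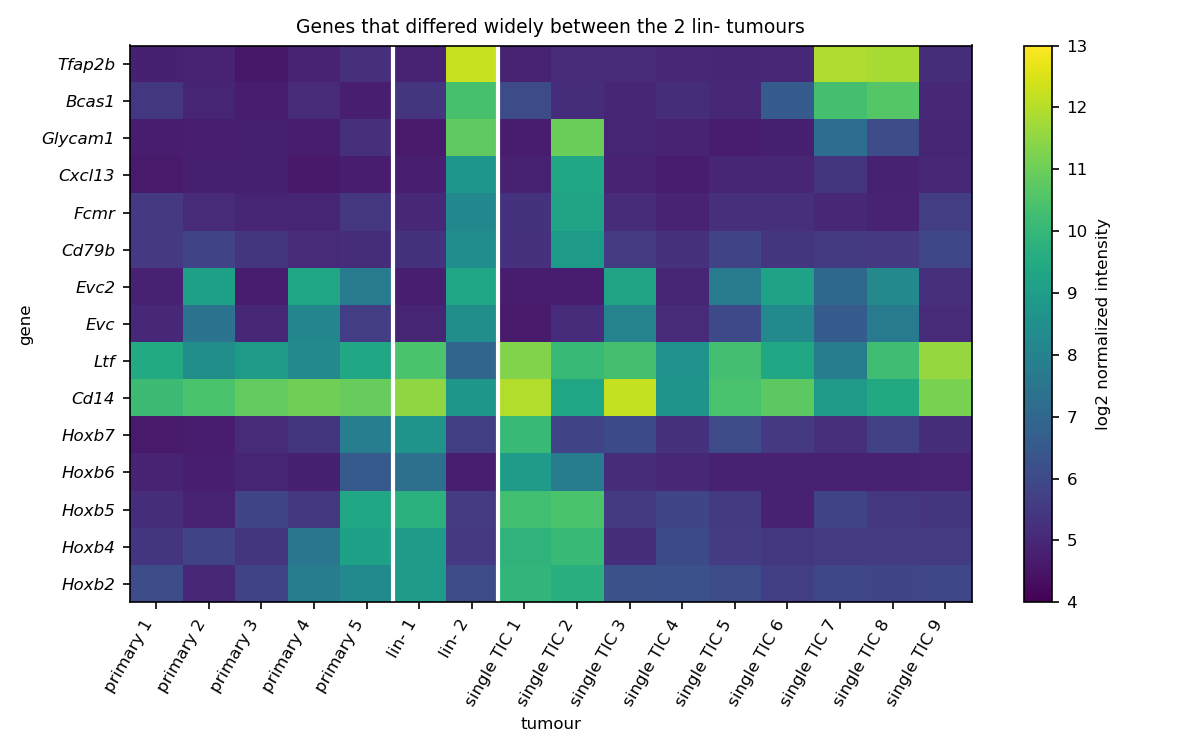
Log2 normalized intensity (colour, from 4 to 13) of 15 genes that differed widely between lin- 1 and lin- 2, in all 16 tumours, with white lines between primary, lin- and single TIC tumours. Tfap2b and Bcas1 are bright in lin- 2, single TIC 7 and single TIC 8. Glycam1, Cxcl13, Fcmr and Cd79b are bright in lin- 2 and single TIC 2, and the Hoxb genes in primary 5, lin- 1, single TIC 1 and, except for Hoxb7, single TIC 2.

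Against the 9 single TIC tumours the lin- tumours showed fewer low p-values than against the primary tumours: 0 of 9903 genes (0%) were called by limma and 167 (1.69%) had an unadjusted p under 0.05. This comparison shares the lin- tumours with the one above, and the number of tumours differs between them. The 1.69% is below the share of 0.05 that the threshold gives on average with no difference. It is therefore no measure of likeness between lin- and single TIC tumours. Per1, a repressor of the clock loop, had the smallest p. It was at 10.65 and 10.60 in lin- tumours and at 8.85 to 9.91 (median 9.27) in single TIC tumours, a difference of 1.34 (SE 0.23, adjusted p = 0.270). The primary tumours, at 9.93, 10.77, 10.46, 9.96 and 10.42, overlapped the lin- tumours. With array weights Per1 was called (adjusted p = 0.0201), within a range of 0.0201 to 1.00 over 16 alternatives. Arntl was at 7.10 to 8.09 in single TIC tumours, which overlapped lin- 2 (7.79) but not lin- 1 (8.18), and Dbp and Per2 overlapped in full. The next smallest p-values belonged to Rab40b (difference 0.55), Foxo1 (0.62), Tmcc3 (-0.60), Lipt2 (-0.66) and Bmpr1b (0.96), each with an adjusted p of 1.00. Foxo1, a transcription factor restrained by the PI3-kinase pathway, was at 9.97 and 9.88 in lin- tumours, at 9.15 to 9.54 in single TIC tumours and at 9.62 to 10.24 in primary tumours.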

How the data were processed

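Total RNA from each tumour was labelled and hybridised to 1 Illumina mouse bead array. Raw bead intensities and a detection p-value per probe were exported by the authors with BeadStudio, per the submitters' processing notes (version not given in the sources used here). The authors' processed table holds intensity values that appear quantile-normalized, judged from the deposited values alone, and served as an alternative.

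From the raw intensities, background was corrected with limma 3.58.1 (nec, offset 16, negative controls inferred from the detection p-values) in R 4.3.3, followed by quantile normalization and log2. Probes with a detection p-value under 0.05 on at least 2 of 16 arrays were kept, 14520 of 25697. Each gene was represented by its probe with the highest mean, giving 9903 genes. Symbols came from the platform annotation.

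One model with a mean for each of the 3 groups was fitted in limma with Benjamini-Hochberg adjustment over all genes, and the script was tested on simulated data. Genes named are the 12 widest gaps each way, the 10 smallest p-values, list members outside the primary range or among the 4 largest differences of a list, the 6 widest opposite departures, the 6 smallest p-values against single TIC tumours, genes called with 1 tumour left out, and 11 genes given by name. Gaps above were ranked among genes detected on both lin- arrays, and gaps below among genes detected on all 5 primary arrays. The comparison, the 32 lists and these rules were chosen with earlier results of these data known. Replicates are numbered in accession order. Alternatives covered background, filter, probe choice, fitted samples, array intensity, weights, variance model and each tumour left out.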

Additional observations from a re-analysis of the deposited data

Results flagged for a closer look

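Among 254 groups of values for the named genes, 22 held a tumour whose gap to its neighbour was large for the group's range by Dixon's criterion, which chance alone meets in about 1 of 20 groups. Primary 2 was low for Hsp90b1 (13.35) and Ciart (5.48), primary 3 was low for Tesc (9.38), and primary 4 was high for Derl2 (9.76). Primary 5 was high for Hsd3b2 (13.56), and its Ccl21a (5.13) and Glycam1 (5.21) levels stood above the other primary tumours near background. Among the single TIC tumours, single TIC 2 was high for the lymphoid genes Cd79b (8.90), Cd79a (7.18), Mzb1 (7.71), Cxcl13 (9.41), Ccl21a (9.59) and Glycam1 (10.98), and also for Grb2 (6.22). The lin- 2 tumour was high for the first 6 of these. Single TIC 6 was low for Dcn (5.15), Serpinf1 (6.81) and Ccl9 (6.96), and single TIC 4 was low for the milk genes Btn1a1 (7.34) and Wap (6.73). The remaining values were a low Jun in single TIC 7 (8.48), a high Per2 in single TIC 9 (10.78) and a high Bmpr1b in single TIC 5 (5.61).

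Per1 was above the primary mean in both lin- tumours and below it in all 9 single TIC tumours. The difference between lin- and single TIC tumours was 1.34 and was not called by limma (adjusted p = 0.270).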

How the results depend on the processing

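Between lin- and primary tumours 0 genes were called. The count was 1 (Pfdn2) with the authors' processed table, without background correction, with an offset of 50, without a detection filter, with detection on at least 5 of 7 arrays and with a trended robust variance. It was 1 (Dhh) with only lin- and primary tumours fitted, 10 with array weights, and 0 with the highest-variance probe or mean raw intensity as a covariate. With 1 tumour left out it ran from 0 to 7, with 4 without primary 2, 7 without primary 4 and 1 without primary 5. Pan2 and Tmc1 were among these calls, without primary 2 (adjusted p = 0.0472 by limma) and without primary 4 (0.0439). Against single TIC tumours the count was 1 (Per1) with array weights and 0 otherwise. Leaving out 1 tumour gave 741 to 1557 genes above the primary range, 975 to 1910 below and 1716 to 3458 in all. The number of list members outside it ran from 77 to 174, against 70 with all tumours. A range over fewer tumours is narrower by construction. Of 1911 single-gene results under the alternatives 0 changed direction, 30 passed the threshold and 1881 stayed on their side of it. Most of these genes were named for their position or difference in these same data. Their direction could therefore hardly change, and the 0 is no measure of robustness. No paired analysis was possible because the labels give no replicate numbers shared between groups. Chip or array position could not be used as a block, since the files used here give neither. Genes near background, such as Car3, Cd163, Pgk1 and Twist1, have a level bounded by the detection limit.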
